A study of Mus musculus with 12 samples.

Results

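The comparison described here set leukemic long-term hematopoietic stem cells (LTHSC) from Prx1_Cre mice against those from No_Cre mice, as 8 of the 12 libraries of the series, 4 in each group. The libraries were taken by their titles, and every gene that passed a filter on low counts was tested. In both groups the mice were C57BL/6 with chronic myeloid leukemia (CML), and the cells were taken from their marrow and sorted by flow cytometry on surface markers. No_Cre mice carried no Cre. In Prx1_Cre mice the Cre is driven by Prx1 regulatory sequence, which is active in mesenchymal stroma of the limb skeleton and not in blood cells. The third group, Tek_Cre, carried a Cre known to act in endothelium and in the blood lineage itself, and is given only beside single values. The series title names Cxcl12 made by the mesenchymal niche, but the labels state neither the Cxcl12 allele, the way the leukemia was made, the age nor the sex of the mice, and describe the mice both as recipients and as primary animals.

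CXCL12 is a chemokine made by stromal and endothelial cells of the bone marrow, and its receptor CXCR4 on stem cells retains them in the marrow. Contact with CXCL12-producing stroma is known to hold normal stem cells in quiescence, a resting state outside the cell cycle. In CML the BCR-ABL1 kinase drives the growth of myeloid cells, and leukemic stem cells that rest are known to survive kinase inhibitors.

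Total counts were 19988050 to 24007569 in the No_Cre libraries and 22385590 to 28253956 in the Prx1_Cre libraries. Levels are in CPM, counts scaled to library size and composition (TMM normalisation), and changes are log2 fold changes of Prx1_Cre over No_Cre ± SE from edgeR's quasi-likelihood test over all 12 libraries. A gene is said to have risen or fallen where its Benjamini-Hochberg adjusted p was under 0.05, and the words over 2-fold are kept for genes whose change also passed a test against a 2-fold change. The share of immunoglobulin genes was 7.31 to 7.71% of counts in No_Cre and 0.296 to 0.3096% in Prx1_Cre, and that of mitochondrially encoded genes 0.117 to 0.142% and 0.282 to 0.456%. Prx1_Cre replicate 4 stood apart from the other 3 of its group, with 11.6 to 14.6 chi-square per degree of freedom against them where those 3 differed by 1.80 to 2.23. Without it the counts of genes given below were 5523 risen and 5962 fallen, and 806 and 1505 past 2-fold. The labels do not tie libraries to mice, so p-values measure only the spread between these libraries. In bulk RNA of sorted cells, fewer cells of a type and less RNA per cell cannot be told apart.

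Kit, Slamf1 and Ly6a, genes among those that define LTHSC, were detected in the sorted cells of both groups. Kit was at 836, 862, 864 and 867 CPM in the No_Cre libraries and at 603, 596, 609 and 572 CPM in the Prx1_Cre libraries, a log2 change of -0.53 ± 0.03 (adjusted p = 1.50e-12). This gene encodes the stem cell factor receptor. Slamf1 was at 51.96, 52.3, 50.7 and 50.8 CPM in the No_Cre libraries and at 32.7, 31.8, 30.1 and 29.7 CPM in the Prx1_Cre libraries, a log2 change of -0.73 ± 0.05 (adjusted p = 6.46e-12). SLAMF1 is the CD150 antigen used to gate long-term stem cells, and the groups did not overlap. The stem cell antigen gene Ly6a, which encodes Sca-1, was at 216 ± 12.4 CPM (SD, n = 4) in No_Cre and 75.1 ± 4.79 CPM in Prx1_Cre. Genes of other cells were present too. Cd48, an antigen absent from the usual LTHSC gate, was at 34.8 ± 3.12 and 50.9 ± 3.48 CPM, and the summed level of 24 late neutrophil genes was 26607 to 27234 CPM in No_Cre and 43799.8 to 44527 CPM in Prx1_Cre. Of 25 stroma and bone markers 2, Prrx1 among them, were at 0 counts in both groups. Of 32 T and NK cell markers only 1, Cd3e, was at 0 counts in both. The summed levels of these lists in No_Cre were 337 to 356 CPM for stroma and bone and 577 to 588 CPM for T and NK cells.

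Most of the transcriptome differed between the groups, and the median size of a called change was 0.64 on the log2 scale. Of 14756 genes tested, 5411 rose in Prx1_Cre (36.7%) and 5749 fell (39.0%), so 75.6% were called in 1 direction or the other, and the 8 libraries did not overlap between the groups for 10123 genes (68.6%). The estimate was under 1.5-fold for 5131 of the called genes (45.98%). The test against a 2-fold change left 762 genes higher (5.16%) and 1412 lower (9.57%), and without immunoglobulin genes 759 and 1334. The median log2 change of all genes tested was -0.02, and it is the value beside which the medians of gene lists are given. The counts of risen and fallen members in the lists below are to be read beside the shares of 36.7% and 39.0%. Large changes leaned towards loss: estimates were over 4-fold for 414 risen and 790 fallen genes, and over 16-fold for 125 and 357. A group without a single count was seen for 28 risen genes in No_Cre and for 187 fallen genes in Prx1_Cre, 31 of these immunoglobulin genes.

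**Figure D1:**
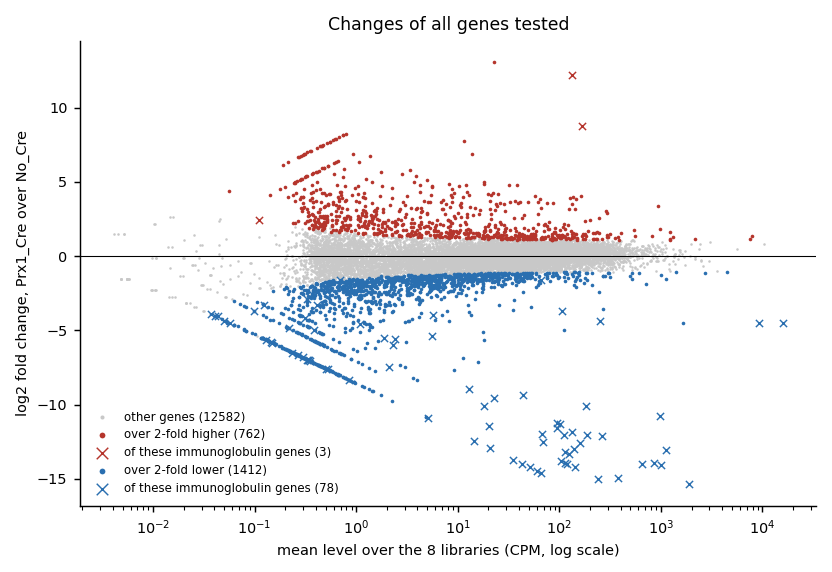
Log2 fold change of Prx1_Cre over No_Cre (y axis) against mean level over the 8 libraries (x axis, CPM, log scale) for the 14756 genes tested. Points in colour are the 762 genes over 2-fold higher and the 1412 over 2-fold lower, with immunoglobulin genes drawn as crosses. Genes over 2-fold lower outnumber those over 2-fold higher below 10 CPM, and the slanted rows hold genes at or near 0 counts in a group, whose plotted change depends on the prior count.

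The excess of losses lay among weakly expressed genes. Of 2342 genes with a mean under 1 CPM, 9.05% were over 2-fold higher and 21.99% over 2-fold lower, whereas of 2311 genes with a mean over 100 CPM the shares were 3.42% and 3.20%. Long noncoding genes leaned lower than protein-coding genes: 450 of 898 fell and 159 rose, with a median log2 change of -0.51, against 0.00 for 12921 protein-coding genes. The gap in the median was also present between 10 and 100 CPM, at -0.25 for 60 long noncoding and 0.04 for 6595 protein-coding genes, and 1 to 10 CPM, at -0.56 and -0.30. Under 1 CPM the medians were -0.52 and -0.58, so the order turned there. No test of the difference between the classes was made.

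**Figure D2:**
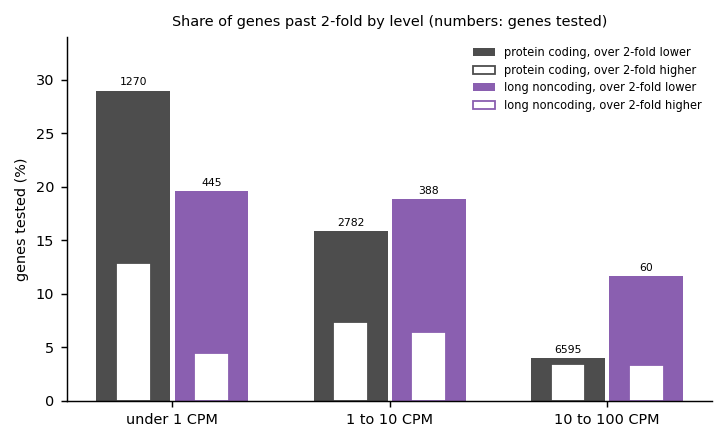
Share of genes tested (y axis, percent) that were over 2-fold lower (filled bars) or over 2-fold higher (open bars) in Prx1_Cre, for protein-coding and long noncoding genes at 3 levels (x axis, mean CPM over the 8 libraries). The number above a bar is the number of genes tested. Between 10 and 100 CPM the share over 2-fold lower was 11.7% of 60 long noncoding and 3.96% of 6595 protein-coding genes.

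**Figure D3:**
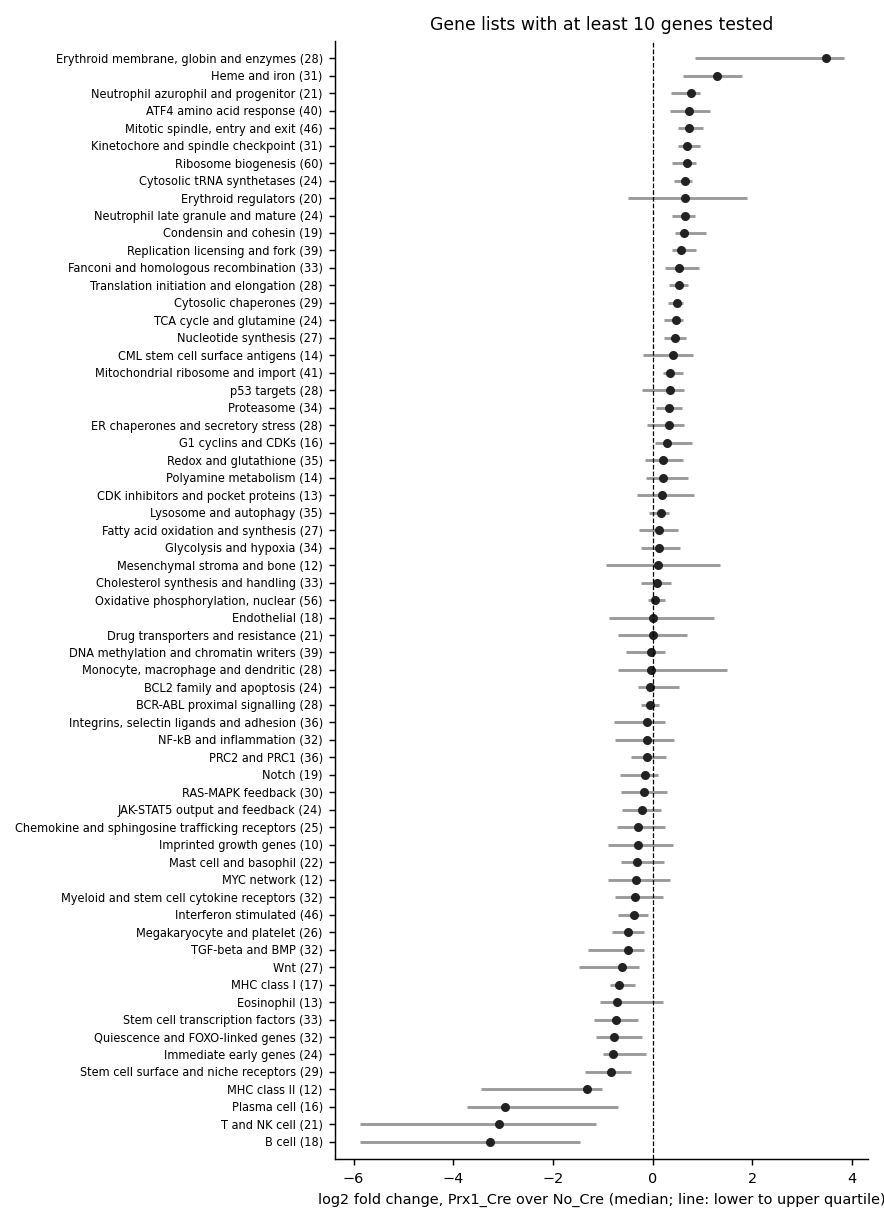
Median log2 fold change (point) and the middle range of members, from the lower to the upper quartile (line), for the 63 of 65 gene lists with at least 10 genes tested, ordered by median. The dashed line is 0, and the label of each list gives its number of genes tested. Erythroid, heme, mitotic and ribosome biogenesis lists lie above 0 and lymphoid and MHC class II lists and those of stem cell transcription factors and stem cell surface receptors below it, while the list of CML stem cell antigens lies above 0, the lymphoid medians resting in part on genes at 0 counts in Prx1_Cre.

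Genes of the cell cycle were higher in Prx1_Cre, most by less than 2-fold, and the rise of the proliferation marker Mki67 was small. Entry into DNA replication is opened by cyclin E. Ccne1 levels were 28.9, 32.3, 28.7 and 26.7 CPM in the 4 No_Cre libraries and 115, 123, 119 and 126 CPM in the 4 Prx1_Cre libraries, which gave a log2 change of 2.05 ± 0.05 (adjusted p = 3.47e-20). The groups did not overlap, and the rise was 4.14-fold. Ccne2 also passed the 2-fold test (log2 change 1.24 ± 0.11). The D cyclins, which pair with CDK4 and CDK6 to phosphorylate RB, went lower, with Ccnd1 at -0.69 ± 0.07 and Ccnd2 at -0.54 ± 0.05 on the log2 scale. Of 16 G1 cyclin and CDK genes 12 rose and 4 fell. The cell cycle inhibitors did not move as 1 group. Cdkn1c (p57), an inhibitor linked to stem cell quiescence, fell over 2-fold (10.7 ± 1.36 CPM in No_Cre, 4.35 ± 0.613 in Prx1_Cre), and Cdkn2c (p18) fell by less, with a log2 change of -0.75 ± 0.05. Cdkn1a levels were 23.3, 19.5, 19.2 and 20.3 CPM in the 4 No_Cre libraries and 36.05, 37.4, 36.98 and 39.6 CPM in the 4 Prx1_Cre libraries, which gave a log2 change of 0.86 ± 0.06 (adjusted p = 1.35e-11). This p53 target, which encodes p21, rose, as did the pocket protein genes Rb1 (log2 change 0.84 ± 0.09) and Rbl1 (0.73 ± 0.06).

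Replication genes followed the same direction. Of 39 genes for origin licensing and the replication fork, 35 rose, 1 fell and the median log2 change was 0.57. Orc2 levels were 28.3, 28.7, 27.98 and 26.5 CPM in the 4 No_Cre libraries and 84.1, 85.03, 79.9 and 64.5 CPM in the 4 Prx1_Cre libraries, which gave a log2 change of 1.49 ± 0.09 (adjusted p = 3.74e-12). This origin recognition subunit moved most, without overlap, and Cdc6 (log2 change 1.31 ± 0.04), which loads the MCM helicase, and Rfc4 (1.17 ± 0.07) of the clamp loader also passed the 2-fold test. The 6 genes of the MCM2 to MCM7 helicase rose by 0.40 to 0.71 on the log2 scale. The clamp loader subunit Rfc2 went the other way, at -0.18 ± 0.04.

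Genes of chromosome segregation were higher as well. Of 46 genes of spindle, mitotic entry and exit, 40 rose and 1 fell, with a median log2 change of 0.72, and of 31 kinetochore genes 30 rose, with a median of 0.69. Hmmr was at 27.9, 27.02, 28.8 and 30.8 CPM in the No_Cre libraries and at 85.5, 84.7, 79.1 and 76.5 CPM in the Prx1_Cre libraries, a log2 change of 1.51 ± 0.06 (adjusted p = 4.88e-16). HMMR is a spindle assembly factor and the groups did not overlap. Kif11, the motor that separates spindle poles, rose by 1.19 ± 0.06, and Zwilch, a kinetochore checkpoint gene, by 1.50 ± 0.10. Mki67 levels were 99.9, 104, 109 and 102 CPM in the 4 No_Cre libraries and 126, 118, 115 and 112 CPM in the 4 Prx1_Cre libraries, which gave a log2 change of 0.19 ± 0.04 (adjusted p = 0.000634). Its change was 1.14-fold and under the list median, and with upper-quartile scaling the call was lost (log2 change 0.09, adjusted p = 0.0690). Condensin and cohesin genes, which shape and hold chromosomes, rose in 17 of 19, led by Ncapg2 (log2 change 1.48 ± 0.07) and the cohesin release factor Wapl (1.41 ± 0.08). In repair, 29 of 33 Fanconi and recombination genes rose, Fancd2 by 1.42 ± 0.06, and Brca2 fell (-0.65 ± 0.08).

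Promoters of the mitotic genes were searched in the 250 bases before each start, on both strands, for TTTGAA, the cell cycle homology region (CHR) bound by the repressor complexes of the cycle, and for CCAAT, bound by NF-Y. Of 40 promoter entries of these genes in RefSeq (GRCm38.p6), 40.0% held TTTGAA and 67.5% CCAAT, against 15.99% and 33.8% of all 32851 entries. Of 30 entries of the kinetochore genes, 13.3% held TTTGAA and 56.7% CCAAT. The median log2 change of mitotic genes with TTTGAA was 0.67, against 0.76 for those without, and with CCAAT 0.66 against 0.96. The promoter of Kif11 shows both within 50 bases of the RefSeq start. The bases after that start were not found near the beginning of any annotated Kif11 transcript, so these distances are uncertain. It lies on the forward strand at chr19:37376132-37376381, and capitals mark TTTGAA and CCAAT or their reverse complements.

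Kif11 promoter: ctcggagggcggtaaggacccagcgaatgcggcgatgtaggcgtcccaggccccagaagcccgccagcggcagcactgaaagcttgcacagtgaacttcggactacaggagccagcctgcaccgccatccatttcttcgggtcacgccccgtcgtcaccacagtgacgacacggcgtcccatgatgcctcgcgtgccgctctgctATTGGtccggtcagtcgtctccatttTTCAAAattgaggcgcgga

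Genes for making ribosomes and protein were higher across nearly all members. Of 60 ribosome biogenesis genes, which process ribosomal RNA in the nucleolus, 57 rose and 1 fell, with a median log2 change of 0.68, and all 24 cytosolic tRNA synthetase genes rose, with a median of 0.66. Ddx21 reached 82.2, 76.8, 81.4 and 82.4 CPM in No_Cre replicates 1 to 4 and 187, 199, 201 and 201 CPM in those of Prx1_Cre, with a log2 change of 1.29 ± 0.04 (adjusted p = 1.87e-18). DDX21 is a nucleolar helicase, and its 8 libraries did not overlap between groups. Nat10, which acetylates ribosomal RNA, rose by 1.14 ± 0.05, and Nop10 of the box H/ACA particle was at -0.17 ± 0.04. Translation factors rose in 25 of 28 and mitochondrial ribosome and import genes in 36 of 41, the chaperonin gene Hspd1 by 1.14 ± 0.05.

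The MYC network held more falls than rises, and Myc itself was at -0.11 ± 0.04 on the log2 scale (adjusted p = 0.0261), a call lost without No_Cre replicate 4 or without any 1 of Prx1_Cre replicates 1, 2 and 3 (adjusted p = 0.0618 to 0.0901). Max levels were 21.4, 22.7, 24.05 and 21.1 CPM in the 4 No_Cre libraries and 62.5, 65.6, 62.8 and 60.3 CPM in the 4 Prx1_Cre libraries, which gave a log2 change of 1.49 ± 0.06 (adjusted p = 4.16e-17). MAX, the partner of MYC, was 2.81-fold higher. Mycn fell over 2-fold (191 ± 13.1 CPM to 89.5 ± 2.92 CPM), as did Mnt, a MAX partner that represses, at -1.27 ± 0.10 on the log2 scale. Of the 12 network genes 4 rose and 8 fell. The polyamine enzyme genes Amd1 (1.34 ± 0.13) and Odc1 (0.96 ± 0.04), both known MYC targets, rose.

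In the proteasome, split into parts after the values were seen, the cap and the beta ring were called in different directions. That difference was not itself tested. Of 20 genes of the 19S cap, which unfolds substrates, 19 rose, with a median log2 change of 0.54. Of the 7 genes of the constitutive beta ring, which holds the proteolytic sites, 1 rose and 4 fell, with a median of -0.13, and Psmb6 was at -0.25 ± 0.04. The 7 alpha ring genes lay between, with 5 risen. No gene of these parts passed the 2-fold test. Among chaperones, Hsph1 rose most (43.6 ± 1.18 to 124 ± 3.16 CPM). In the endoplasmic reticulum the BiP gene Hspa5 rose by 1.16 ± 0.04 while Derl3 fell by over 2-fold (-3.28 ± 0.08). Derl3 is also a member of the plasma cell list, most of which fell.

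Genes of the amino acid response, which the transcription factor ATF4 induces when amino acids or heme run short, held some of the largest rises. Of 40 tested, 31 rose and 4 fell, 8 of them over 2-fold higher, and the median log2 change was 0.73. The level of Asns was 63.5, 63.7, 65.1 and 63.5 CPM in No_Cre and 528, 528, 524 and 489 CPM in Prx1_Cre (log2 change 3.02 ± 0.04, adjusted p = 2.62e-25). Asparagine synthetase, encoded by this gene, was 8.09-fold higher without overlap. Cth reached 0.155, 0.154, 0.265 and 0.369 CPM in No_Cre replicates 1 to 4 and 28.4, 28.5, 26.9 and 26.6 CPM in those of Prx1_Cre, with a log2 change of 6.88 ± 0.16 (adjusted p = 1.97e-19). CTH makes cysteine from cystathionine, and its No_Cre level rested on 22 counts. The transporter genes Slc7a3 (cationic amino acids, log2 change 3.48 ± 0.15) and Slc1a4 (neutral amino acids, 2.47 ± 0.09) also rose over 2-fold. Atf4 reached 155, 152, 154 and 158 CPM in No_Cre replicates 1 to 4 and 226, 229, 236 and 242 CPM in those of Prx1_Cre, with a log2 change of 0.60 ± 0.04 (adjusted p = 2.81e-13). The gene of the factor itself thus rose, by less than 2-fold. Serine synthesis was uneven, with Psat1 at 0.94 ± 0.04 and Phgdh, its first enzyme, at -0.03 ± 0.05 and not called. Vldlr fell over 2-fold (-1.49 ± 0.07), and Ppp1r15a, whose product lets translation resume, fell by 0.91 on the log2 scale.

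ATF4 binds with C/EBP partners to the element TGATGNAA. In the 250 bases before the start, on either strand, 9 of 42 promoter entries of this list held it (21.4%), against 3.45% of all 32851 entries. With 150 bases the shares were 16.7% and 2.23%. The members with it had a median log2 change of 0.65 and those without 0.60. Asns and Chac1, which degrades glutathione, rose over 2-fold and Vldlr fell over 2-fold, and all 3 carry the element, in capitals below, at 23, 193 and 200 bases before the start. Coordinates are chr6:7693210-7693459 on the reverse strand for Asns, chr2:119350992-119351241 on the forward strand for Chac1 and chr19:27216770-27217019 on the forward strand for Vldlr.

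Asns promoter: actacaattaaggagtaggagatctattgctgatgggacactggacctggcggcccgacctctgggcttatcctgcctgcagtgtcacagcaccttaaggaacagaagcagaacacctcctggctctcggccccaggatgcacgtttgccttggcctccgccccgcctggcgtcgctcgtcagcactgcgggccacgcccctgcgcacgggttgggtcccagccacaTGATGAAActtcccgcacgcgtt

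Chac1 promoter: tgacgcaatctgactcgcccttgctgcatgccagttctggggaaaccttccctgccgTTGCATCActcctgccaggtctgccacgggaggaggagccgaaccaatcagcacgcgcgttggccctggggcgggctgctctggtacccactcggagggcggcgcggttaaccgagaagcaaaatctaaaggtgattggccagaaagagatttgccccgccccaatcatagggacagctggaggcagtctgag

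Vldlr promoter: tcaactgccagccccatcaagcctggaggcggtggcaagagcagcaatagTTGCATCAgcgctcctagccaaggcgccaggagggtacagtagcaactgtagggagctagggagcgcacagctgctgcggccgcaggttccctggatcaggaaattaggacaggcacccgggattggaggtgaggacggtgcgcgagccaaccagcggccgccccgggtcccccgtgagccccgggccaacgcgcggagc

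Genes of red cell formation were higher over 2-fold in most lists of that lineage. Epor levels were 27.6, 26.8, 27.2 and 26.6 CPM in the 4 No_Cre libraries and 108, 111, 113 and 129 CPM in the 4 Prx1_Cre libraries, which gave a log2 change of 2.09 ± 0.06 (adjusted p = 3.47e-20). The erythropoietin receptor was 4.27-fold higher, with no overlap. Tfrc reached 23.6, 22.4, 22.7 and 18.5 CPM in No_Cre replicates 1 to 4 and 277, 261, 263 and 183 CPM in those of Prx1_Cre, with a log2 change of 3.49 ± 0.11 (adjusted p = 1.27e-15). The transferrin receptor brings iron into the cell. Of the transcription factors, Klf1 (log2 change 3.14 ± 0.05) and Gata1 (1.42 ± 0.05) rose, but Zfpm1 (-0.74 ± 0.05), the GATA1 partner FOG1, and Zbtb7a (-0.86 ± 0.06) and Sox6 (-1.19 ± 0.06), which repress embryonic or fetal globin genes, fell. In all, 11 of 20 regulators rose and 8 fell.

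Iron and heme genes rose in 27 of 31, 17 of them over 2-fold, where 5.16% of all tested genes were. Alas2 reached 1.12, 1.61, 1.02 and 1.11 CPM in No_Cre replicates 1 to 4 and 34.6, 34.6, 34.2 and 37.5 CPM in those of Prx1_Cre, with a log2 change of 4.84 ± 0.12 (adjusted p = 5.35e-21). ALAS2 is the first enzyme of heme synthesis in red cells. Among other enzymes of the pathway the changes differed: Alad rose by 0.83 ± 0.06, Uros by 1.68 ± 0.07, Urod by 0.81 ± 0.05, Cpox by 2.08 ± 0.04, Ppox by 0.83 ± 0.06 and Fech by 1.51 ± 0.04 on the log2 scale. The iron reductase gene Steap3 rose by 2.55 ± 0.08 and the biliverdin reductase gene Blvrb by 2.33 ± 0.06.

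Of 28 globin, membrane and enzyme genes of red cells 26 rose, 20 over 2-fold, and their summed level was 2372 to 2428 CPM in No_Cre and 7848 to 8039 CPM in Prx1_Cre. Car1 reached 158, 167, 166 and 159 CPM in No_Cre replicates 1 to 4 and 1723, 1736, 1713 and 1618 CPM in those of Prx1_Cre, with a log2 change of 3.38 ± 0.04 (adjusted p = 2.70e-27). CAR1 is a carbonic anhydrase of red cells, and the groups did not overlap. Band 3, the anion exchanger of the red cell membrane encoded by Slc4a1, was 26.4-fold higher. The globin gene Hba-a2 was 32.01-fold higher, but it is nearly identical to Hba-a1, so its own reads are uncertain. Bpgm, whose product lowers the oxygen affinity of hemoglobin, fell (-0.26 ± 0.05).

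AGATAA, a sequence bound by GATA1, was sought in the same windows. It was present in 6 of 23 promoter entries of red cell membrane, globin and enzyme genes (26.1%), against 9.99% of all entries, and in 2 of 35 entries of heme and iron genes (5.71%). CCACACCC, a form of the motif bound by KLF1, was in 1 of 23 and 0 of 35. Rhd, whose product is a Rhesus antigen and whose log2 change was 4.06 ± 0.05, and Alas2 hold AGATAA or its reverse complement at 43 and 86 bases before the start. They lie on the forward strand at chr4:134864286-134864535 and chrX:150547167-150547416.

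Rhd promoter: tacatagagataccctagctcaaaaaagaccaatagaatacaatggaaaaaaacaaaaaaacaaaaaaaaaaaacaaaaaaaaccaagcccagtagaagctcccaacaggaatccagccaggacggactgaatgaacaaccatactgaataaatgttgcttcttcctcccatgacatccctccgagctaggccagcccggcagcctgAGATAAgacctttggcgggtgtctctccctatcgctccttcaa

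Alas2 promoter: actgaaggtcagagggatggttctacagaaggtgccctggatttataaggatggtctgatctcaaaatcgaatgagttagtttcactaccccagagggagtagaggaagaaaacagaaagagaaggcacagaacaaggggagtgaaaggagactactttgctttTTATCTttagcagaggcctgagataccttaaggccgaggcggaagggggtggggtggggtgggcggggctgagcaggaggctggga

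**Figure D4:**
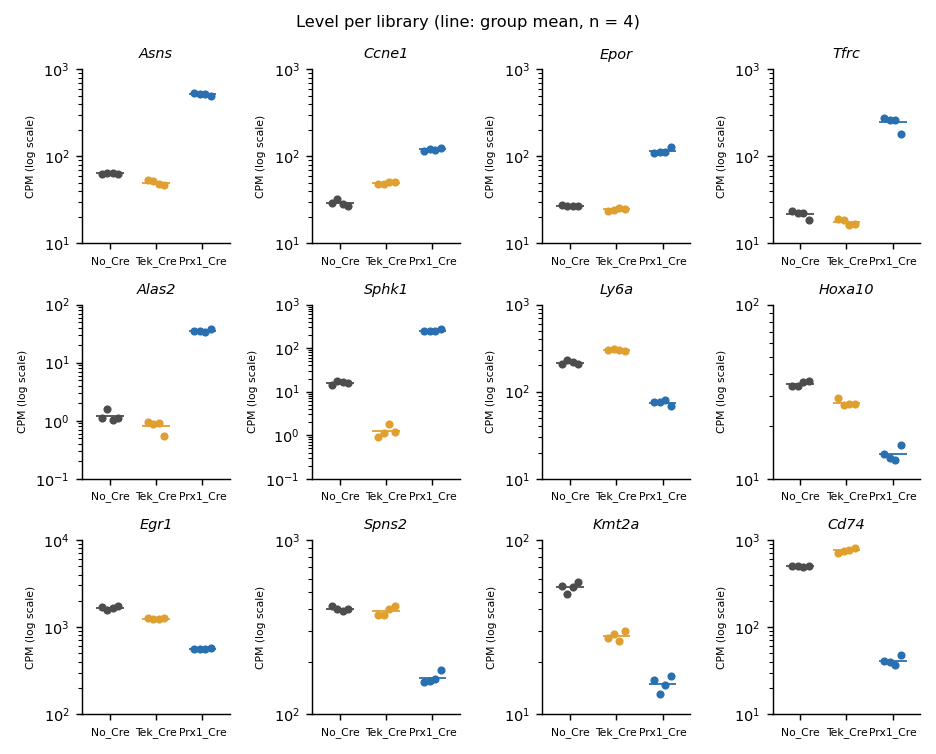
Level of 12 named genes in each of the 12 libraries (y axis, CPM, log scale), with libraries of No_Cre, Tek_Cre and Prx1_Cre side by side and the group mean as a line. Prx1_Cre lies above No_Cre for Asns, Ccne1, Epor, Tfrc, Alas2 and Sphk1 and below it for Ly6a, Hoxa10, Egr1, Spns2, Kmt2a and Cd74.

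Stem cell genes went lower while most stayed detectable. Of 33 transcription factor genes of stem cells 25 fell and 5 rose, 8 over 2-fold lower, with a median log2 change of -0.74. The level of Hoxa10 was 33.9, 33.98, 35.9 and 36.3 CPM in No_Cre and 13.9, 13.2, 12.8 and 15.6 CPM in Prx1_Cre (log2 change -1.34 ± 0.07, adjusted p = 1.08e-14). HOXA10 is a homeodomain factor of early progenitors. Among the 8 Hoxa genes tested 7 fell, and among 6 Hoxb genes 4 fell, each of these over 2-fold. Ikzf2 (Helios) fell by 1.48 and Tcf15, linked to long-term stem cells, fell by 1.22, whereas Nfia (1.07 ± 0.08) and Gfi1b (0.93 ± 0.05) rose. On the cell surface 24 of 29 genes fell and 2 rose. Robo4 levels were 46.5, 44.01, 46.99 and 43.2 CPM in the 4 No_Cre libraries and 12.2, 12.4, 11.7 and 13.4 CPM in the 4 Prx1_Cre libraries, which gave a log2 change of -1.87 ± 0.08 (adjusted p = 1.95e-16). ROBO4 is a guidance receptor used to mark stem cells. Ly6a, Pdzk1ip1 (-1.67 ± 0.05) and Fgd5 (-1.40 ± 0.08) fell over 2-fold. Beside these falls, the sums of red cell and azurophil granule genes, given with those lists, were higher in Prx1_Cre, and their part in the result was not tested.

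Genes known for cells at rest, and immediate early genes, held more falls than rises. Of 32 quiescence genes 26 fell, with a median log2 change of -0.77. Txnip reached 715, 736, 719 and 711 CPM in No_Cre replicates 1 to 4 and 279, 286, 282 and 283 CPM in those of Prx1_Cre, with a log2 change of -1.35 ± 0.03 (adjusted p = 9.34e-21). TXNIP limits glucose uptake. Ypel3 fell by 1.49 and the PI3K inhibitor gene Pik3ip1 fell by 1.24, and the growth arrest gene Gadd45a rose (1.09 ± 0.06). Of 24 immediate early genes 17 fell. Egr1 reached 1694, 1586, 1666 and 1739.8 CPM in No_Cre replicates 1 to 4 and 557, 564, 561 and 575 CPM in those of Prx1_Cre, with a log2 change of -1.57 ± 0.04 (adjusted p = 2.71e-21). Egr1, Klf4 (-1.27 ± 0.13), Zfp36 (-1.11 ± 0.04) and Fos (-1.10 ± 0.04) fell over 2-fold.

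Receptors that bring cells to the marrow and keep them there differed gene by gene. Cxcr4 was at 21.6, 23.2, 22.7 and 23.1 CPM in the No_Cre libraries and at 26.8, 27.1, 26.9 and 26.4 CPM in the Prx1_Cre libraries, a log2 change of 0.24 ± 0.06 (adjusted p = 0.000564). CXCR4 is the receptor of CXCL12, and its 8 libraries did not overlap between the groups. Cxcl12 was at 36 counts in No_Cre and 28 in Prx1_Cre, and Ackr3, the other CXCL12 receptor, at 1 and 9; neither passed the filter. Since the sorted cells are not the stroma, the level of Cxcl12 says nothing on the targeted cells. Sphk1 reached 13.9, 17.7, 16.4 and 15.96 CPM in No_Cre replicates 1 to 4 and 247, 246, 243 and 277 CPM in those of Prx1_Cre, with a log2 change of 3.99 ± 0.07 (adjusted p = 7.07e-24). SPHK1 makes sphingosine 1-phosphate, a lipid that draws cells into blood. Its exporter Mfsd2b rose by 0.76 ± 0.05, but the exporter Spns2 fell over 2-fold (403 ± 11.6 to 161 ± 11.6 CPM) and so did the receptor S1pr1 (-1.40 ± 0.07). Of 36 integrin, selectin ligand and adhesion genes 11 rose (30.6%) and 18 fell (50%), beside 36.7% and 39.0% of all genes tested. Among them F11r (-1.34 ± 0.04), Icam1 (-1.03 ± 0.05) and Selp (-1.02 ± 0.04) fell.

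Signalling genes of the leukemia were divided. Of 28 genes close to BCR-ABL 8 rose and 9 fell, and of 30 RAS and MAPK feedback genes 11 rose and 14 fell, beside 36.7% and 39.0% of all genes tested. Bcr reached 20.03, 20.8, 22.1 and 25.1 CPM in No_Cre replicates 1 to 4 and 8.82, 6.35, 8.01 and 7.59 CPM in those of Prx1_Cre, with a log2 change of -1.51 ± 0.09 (adjusted p = 6.58e-13). Bcr, the partner of ABL1 in the CML fusion, was lower over 2-fold, as was Abl2 (-1.38 ± 0.13). Whether reads of a BCR-ABL1 transgene count at Bcr is not known. STAT5 targets and feedback genes rose in 7 of 24 and fell in 13, among the latter Pim1 (-1.16 ± 0.10), Pim2 (-1.08 ± 0.04), Cish (-1.04 ± 0.07) and Socs3 (-0.99 ± 0.05). Pim2 is also a member of the plasma cell list, most of which fell. Dusp10, a phosphatase that limits MAPK, fell by 1.37. Cytokine receptors rose in 8 of 32 and fell in 22, among the latter Crlf2 (-1.07 ± 0.05) and the shared chain Il6st (-0.89 ± 0.06), and Csf1r rose over 2-fold (1.27 ± 0.09). Of 14 surface antigen genes of CML stem cells 9 rose and 4 fell, and Il1rap rose by 0.78 ± 0.08.

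Genes of TGF-beta, BMP and Wnt signalling held more falls than rises. Of 32 TGF-beta and BMP genes 24 fell and 6 rose, the falls including Ski (-1.78 ± 0.07) and Ltbp3 (-1.70 ± 0.05). The BMP targets Id1 (1.40 ± 0.09) and Id3 (1.69 ± 0.12) rose over 2-fold. Of 27 Wnt genes 21 fell, 8 over 2-fold, among them Tcf7l2 (-1.54 ± 0.09) and Lrp5 (-1.41 ± 0.13), and 4 rose, Fzd7 by 0.60 ± 0.09. Among 39 genes of DNA methylation and chromatin writing 12 rose (30.8%) and 19 fell (48.7%), with a median log2 change of -0.03 near the -0.02 of all genes. Kmt2a reached 54.4, 48.9, 53.9 and 57.3 CPM in No_Cre replicates 1 to 4 and 15.6, 13.1, 14.6 and 16.6 CPM in those of Prx1_Cre, with a log2 change of -1.84 ± 0.07 (adjusted p = 7.45e-17). KMT2A is the MLL1 methyltransferase, needed for Hox expression. Crebbp (-1.05 ± 0.05) and Tet1 (-1.06 ± 0.08) fell, and Ezh2 (0.65 ± 0.06), Kdm6a (0.89 ± 0.06) and Uhrf1 (0.52 ± 0.04) rose. Of 10 imprinted genes tested 2 rose and 5 fell, with a median log2 change of -0.29. Grb10 rose over 2-fold (19.4 ± 0.8603 to 70.6 ± 3.703 CPM) and Igf2r by 1.74 ± 0.12, and Sgce was lower (-1.02 ± 0.06).

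Myeloid lineages went in different directions. Primary granule genes rose in 17 of 21, summed 12840.3 to 12989 CPM in No_Cre and 24729 to 26816 CPM in Prx1_Cre. Mpo was at 4499, 4363, 4326 and 4476 CPM in the No_Cre libraries and at 10989.9, 10987, 11083 and 12654 CPM in the Prx1_Cre libraries, a log2 change of 1.37 ± 0.05 (adjusted p = 5.67e-18). MPO is the peroxidase of that granule, and Cebpa, the regulator of granulocytes, rose by 1.44 ± 0.13. Late granule genes rose in 18 of 24, Chil3 by 1.59 ± 0.08 and Ltf by 1.12 ± 0.04, and Camp fell (-0.36 ± 0.04). Of 28 monocyte and dendritic genes 12 rose (42.9%) and 14 fell (50%), beside 36.7% and 39.0% of all genes tested. Over 2-fold, 32.1% of these were higher and 17.9% lower, beside 5.16% and 9.57% of all. F13a1 (3.27 ± 0.07), Zbtb46 (3.10 ± 0.09) and Cd14 (2.16 ± 0.08) rose over 2-fold and Cd68 (-1.46 ± 0.06) fell over 2-fold. The level of Epx was 421, 409, 403 and 422 CPM in No_Cre and 72.7, 76.8, 76.6 and 89.2 CPM in Prx1_Cre (log2 change -2.39 ± 0.06, adjusted p = 9.21e-21). Eosinophil peroxidase fell over 2-fold, as did the major basic protein gene Prg2 (-1.89 ± 0.05). Megakaryocyte genes fell in 20 of 26, with Pf4 at -1.48 ± 0.04 and Gp9 at -1.13 ± 0.06, while Thbs1 rose (0.92 ± 0.08). Of 18 endothelial genes 7 rose (38.9%) and 9 fell (50%). Over 2-fold, 22.2% of these were higher and 16.7% lower, beside 5.16% and 9.57% of all genes tested. Their sum was 872 to 899 CPM in No_Cre and 488 to 539 CPM in Prx1_Cre. Of 12 stroma and bone genes 6 rose and 6 fell (337 to 356 and 257 to 287 CPM).

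Lymphoid and antigen presentation genes fell, in part to 0 counts. Ly6d reached 17.3, 17.99, 19.4 and 18.2 CPM in No_Cre replicates 1 to 4 and 0.0654, 0.0825, 0.0719 and 0.125 CPM in those of Prx1_Cre, with a log2 change of -7.67 ± 0.16 (adjusted p = 3.81e-22). LY6D marks lymphoid progenitors committed to B cells. Of 18 B cell genes 15 fell, of 16 plasma cell genes 14, and of 21 T and NK cell genes 19. Their sums were 304 to 332 and 259 to 320.4 CPM for B cells, where the shared antigen Cd24a rose (0.68 ± 0.06), 1702 to 1721 and 945 to 968 CPM for plasma cells and 577 to 588 and 363 to 374 CPM for T and NK cells. Irf4, a plasma cell factor, had 942 counts in No_Cre and 0 in Prx1_Cre, at least 349-fold lower by a floor of 3 counts over the group. Cd74 levels were 497, 504, 484 and 500.2 CPM in the 4 No_Cre libraries and 40.8, 39.5, 37.1 and 47.4 CPM in the 4 Prx1_Cre libraries, which gave a log2 change of -3.59 ± 0.06 (adjusted p = 1.23e-24). CD74 is the chain that guides MHC class II. All 12 MHC class II genes fell, 8 over 2-fold, and 16 of 17 class I genes fell, with a median log2 change of -0.67.

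Interferon genes fell in 32 of 46, with Zbp1 at -1.50 ± 0.07 and Ifitm1 at -1.43 ± 0.04, but Oasl1 (1.20 ± 0.09) and Ifit1 (0.90 ± 0.11) rose. Of 32 NF-kB and inflammation genes 11 rose (34.4%) and 16 fell (50%), beside 36.7% and 39.0% of all genes tested. In each direction 4 were over 2-fold, and the median log2 change was -0.11. Il1b was at 7.89, 7.49, 7.78 and 8.12 CPM in the No_Cre libraries and at 34.9, 31.01, 29.1 and 32.3 CPM in the Prx1_Cre libraries, a log2 change of 2.03 ± 0.10 (adjusted p = 4.45e-15). Il1b encodes interleukin 1 beta, and Ccl3 (1.98 ± 0.09), Cxcl2 (1.51 ± 0.10) and Tnf (1.37 ± 0.07) also rose over 2-fold, and Traf1 was at -1.20 ± 0.08.

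Nucleotide synthesis genes rose in 21 of 27 and fell in 3. The ribonucleotide reductase genes Rrm2 (1.29 ± 0.04) and Rrm1 (1.02 ± 0.05) supply the building blocks of DNA, and Rrm2 rose over 2-fold. Dctpp1, which clears spare nucleotides, was at -0.88 ± 0.05 and Nme2 at -0.83 ± 0.10.

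Of 56 nuclear genes of oxidative phosphorylation 24 rose (42.9%) and 12 fell (21.4%), none of them over 2-fold, with a median log2 change of 0.04. Of 13 listed mitochondrially encoded genes 7 were tested, and all 7 rose, 6 over 2-fold. Another 5 of the 13 were at 0 counts in both groups. Of all 10 genes tested on the mitochondrial chromosome 9 rose and 0 fell. The whole class took a larger share of counts in Prx1_Cre, as given above, though a small share in both groups. Of 24 TCA and glutamine genes 19 rose, pyruvate carboxylase (Pcx) by 1.71 ± 0.09. In glycolysis, the lactate carrier Slc16a1 (1.49 ± 0.05) rose over 2-fold, and Aldoc (-1.90 ± 0.08) fell over 2-fold. Scd1, the fatty acid desaturase, rose by 2.07 ± 0.13, and the sterol exporter Abca1 fell by 1.52. The nucleoside transporter Slc29a1, which also carries nucleoside drugs, rose (118 ± 2.39 to 356 ± 29.9 CPM) and Abcc3 fell (-1.58 ± 0.14). Of 28 p53 target genes 14 rose and 7 fell, with Plk2 at 1.12 ± 0.09 and Trp53inp1 at -1.54 ± 0.09. In lysosome and autophagy 20 of 35 rose, but the kinase gene Ulk1, which starts autophagy, and the sterol carrier gene Npc1 fell (log2 changes -1.10 ± 0.06 and -1.07 ± 0.08). In apoptosis, the BH3-only gene Pmaip1 (1.28 ± 0.10) rose over 2-fold and Bcl2 fell by 0.29.

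Genes named for the size of their change were of many kinds. Avil had 0 counts in all 4 No_Cre libraries and stood at 42.6, 41.1, 46.5 and 53.1 CPM in the Prx1_Cre libraries, so the groups did not overlap. AVIL (advillin) is an actin-bundling protein known from sensory neurons, and with no count in No_Cre it was at least 1470.5-fold higher. Sfrp4, a secreted Wnt antagonist, had 10 counts in No_Cre and 2465 in Prx1_Cre. Other large rises were those of Atp4a (log2 change 4.76 ± 0.15), the alpha chain of the gastric proton pump, Atp7b (4.76 ± 0.17), a copper exporter, Ephx2 (4.34 ± 0.12), soluble epoxide hydrolase, and Tspan8 (4.48 ± 0.14), a tetraspanin. Among the largest falls were Cd79a (-6.85 ± 0.13), a chain of the B cell receptor, Pou2af1 (-5.12 ± 0.11), a B cell coactivator, Slpi (-4.48 ± 0.05), a protease inhibitor, Mmp2 (-3.99 ± 0.11), a matrix protease, Sema3f (-3.94 ± 0.13), a guidance ligand, and the epithelial adhesion genes Cldn7 (-4.36 ± 0.12) and Epcam (-3.79 ± 0.10). Epcam levels were 24.6, 24.8, 22.5 and 23.2 CPM in the 4 No_Cre libraries and 1.700, 1.61, 1.401 and 2.21 CPM in the 4 Prx1_Cre libraries, which gave a log2 change of -3.79 ± 0.10 (adjusted p = 2.53e-20). The 4 No_Cre libraries were high and the 4 Prx1_Cre libraries low. The noncoding gene Pvt1 beside Myc rose over 2-fold (3.44 ± 0.4505 to 21.1 ± 2.06 CPM).

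Genes of the sex chromosomes differed between the groups. Ddx3y was at 22.2, 19.9, 22.7 and 20.8 CPM in the No_Cre libraries and at 7.58, 6.598, 6.504 and 6.09 CPM in the Prx1_Cre libraries, a log2 change of -1.67 ± 0.08 (adjusted p = 9.12e-15). Ddx3y lies on the Y chromosome, as do Eif2s3y (-1.98 ± 0.09), Kdm5d (-1.97 ± 0.10) and Uty (-1.83 ± 0.16), and all 4 fell over 2-fold. Xist was at 1.55, 1.499, 1.59 and 1.57 CPM in the No_Cre libraries and at 16.2, 14.8, 16.5 and 13.3 CPM in the Prx1_Cre libraries, a log2 change of 3.29 ± 0.12 (adjusted p = 1.68e-17). Xist, made from the silenced X of female cells, rose over 2-fold. Every Prx1_Cre library held both Xist and Y-linked reads. In Tek_Cre, Ddx3y was at 22.8 to 26.1 and Xist at 1.32 to 1.77 CPM, the range of No_Cre or near it. Their part in any other result was not tested.

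**Figure D5:**
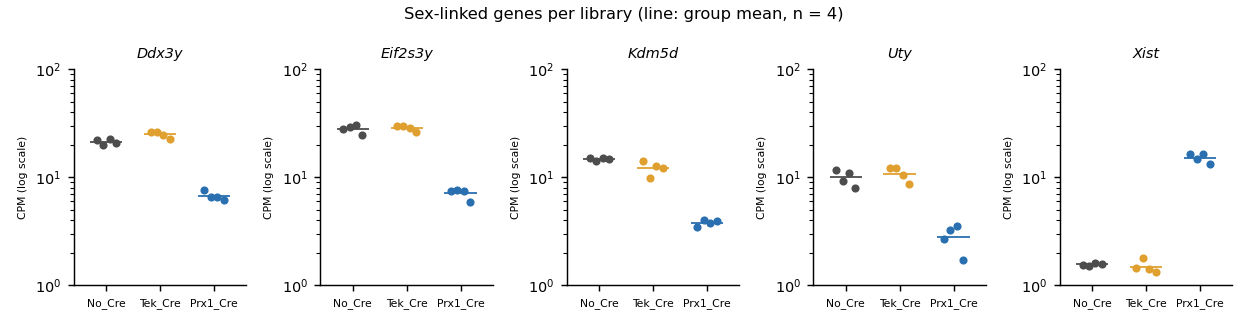
Level of Ddx3y, Eif2s3y, Kdm5d, Uty and Xist in each of the 12 libraries (y axis, CPM, log scale). The 4 Prx1_Cre libraries have the lowest Y-linked levels and the highest Xist level, and no library lacks either.

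The Prx1_Cre level of 9 genes was also set beside the other Cre line. Against Tek_Cre, Asns was higher in Prx1_Cre by 3.37 ± 0.05, Epor by 2.23 ± 0.06, Ccne1 by 1.28 ± 0.05 and Sphk1 by 7.66 ± 0.10 on the log2 scale, and Ly6a was at -2.01 ± 0.05, Hoxa10 at -0.98 ± 0.07, Egr1 at -1.15 ± 0.04 and Kmt2a at -0.91 ± 0.07. Cd74 was at 759 ± 40.1 CPM in Tek_Cre, and its log2 change there was -4.21 ± 0.06 (adjusted p = 2.65e-26). All 9 had an adjusted p under 0.05, beside 77.6% of genes tested in that comparison and 52.9% in that of Tek_Cre with No_Cre. The comparisons of Prx1_Cre with No_Cre and with Tek_Cre share the Prx1_Cre libraries. Tek_Cre did not always lie near No_Cre: Kmt2a was at 53.6 ± 3.53 CPM in No_Cre and 28.1 ± 1.697 CPM in Tek_Cre, and Sphk1 at 15.99 ± 1.58 and 1.26 ± 0.391 CPM.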

How the data were processed

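RNA of sorted leukemic LTHSC was sequenced in 12 libraries, with a low input SMARTer kit per the labels. The authors deposited 1 table of raw counts per gene for 48795 Ensembl identifiers and 12 libraries. Per the submitters' processing notes, which give no roles, Trim Galore 0.4.4, STAR 2.5.3a, HTSeq 0.9.1, DESeq2 1.18.1 and genome build GRCm38 were used, and the strand setting is not given in the sources used here, so reads of antisense or overlapping genes cannot be told apart. Symbols were matched through the GENCODE M21 annotation (48435 identifiers matched, 360 not).

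The counts were tested with edgeR 4.0.16 in R 4.3.3 (quasi-likelihood, robust, TMM, filterByExpr, 12 libraries in 1 fit, group as the only term), with Benjamini-Hochberg adjustment over 14756 genes, and glmTreat was used against a 2-fold change. Where a group held no count, a fold was computed from a floor of 3 counts over the group, which covers counting error only, since reads without molecular identifiers are not independent molecules. DESeq2 1.42.0 served as an alternative, beside other scalings, filters, library sets and a replicate block. Promoters are those of RefSeq (GRCm38.p6), and of the genes of the lists searched, 35 of 42 (ATF4), 38 of 46 (mitotic), 20 of 29 (red cell) and 22 of 31 (heme and iron) had an entry. Plots used matplotlib 3.10.9.

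The 65 gene lists (1852 entries, 1822 matched to a symbol) and all tests were chosen with earlier results of these data known, and lists carry no test of their own. Genes named are axis genes, the 15 largest changes in each direction among those past 2-fold whose mean reached 5 CPM without overlap, and up to 4 members of each list per direction; the text gives a part of them, and some genes are not reported here. Alad, Atf4, Car1, Cd3e, Cpox, Fech, Irf4, Kit, Myc, Phgdh, Ppox, Psat1, Slamf1, Urod and Uros were chosen after their values were seen. So were the smaller groups within lists, namely the proteasome parts, the MCM helicase genes and the Hoxa and Hoxb genes. The Tek_Cre libraries entered the filter on low counts, the scaling and the shared estimate of spread.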

Additional observations from a re-analysis of the deposited data

Results flagged for a closer look

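In groups of 4 libraries, the gap between an end library and its neighbour exceeded Dixon's 95% critical share of the group's range in 33 of 388 groups tested over the genes in the text, where chance gives about 1 in 20. Of these, 25 were set by Prx1_Cre replicate 4, the library that also stood apart in the counts of all genes. The groups that passed this limit share libraries, so they are not independent. No_Cre replicate 1 lay above the other 3 libraries of its group for Mmp2 at 28.3 CPM against 24.5 to 24.7. No_Cre replicate 1 lay below the other 3 libraries of its group for Fancd2 at 21.6 CPM against 24.1 to 24.3 and Kit at 836 CPM against 862 to 867. No_Cre replicate 3 lay above the other 3 libraries of its group for Asns at 65.1 CPM against 63.5 to 63.7. No_Cre replicate 3 lay below the other 3 libraries of its group for Phgdh at 93.9 CPM against 99.2 to 100.1. No_Cre replicate 4 lay above the other 3 libraries of its group for Ackr3 at 0.0461 CPM against 0 and Sfrp4 at 0.415 CPM against 0 to 0.0384. The Ackr3 value was 1 count, the only one in No_Cre, so the library holding it had to pass the limit. No_Cre replicate 4 lay below the other 3 libraries of its group for Vldlr at 58.7 CPM against 63.3 to 64.03. Prx1_Cre replicate 4 lay above the other 3 libraries of its group for Abcc3 at 4.25 CPM against 2.55 to 2.72, Alad at 317 CPM against 258 to 264 and Alas2 at 37.5 CPM against 34.2 to 34.6. Further genes above the others there were Fos at 3033 CPM against 2715 to 2769, Gfi1b at 389 CPM against 333 to 339 and Klf1 at 283 CPM against 249. It was also above them for Ltf at 11156 CPM against 9938 to 9985, Mfsd2b at 278 CPM against 238 to 242 and Mpo at 12654 CPM against 10987 to 11083. The same library lay above the others for Ppp1r15a at 399.5 CPM against 346 to 353, Psmb6 at 319 CPM against 281 to 286 and Rfc2 at 473 CPM against 417 to 422. Further genes above the others there were Rhd at 343 CPM against 295 to 301, Socs3 at 83.4 CPM against 76.04 to 76.7 and Sphk1 at 277 CPM against 243 to 247. It was also above them for Uhrf1 at 327 CPM against 293 to 299 and Zbtb7a at 72.2 CPM against 62.1 to 63.6. Prx1_Cre replicate 4 lay below the other 3 libraries of its group for Asns at 489 CPM against 524 to 528, Cd24a at 216 CPM against 273 to 282 and Eif2s3y at 5.88 CPM against 7.39 to 7.55. Further genes below the others there were Hspa5 at 1569 CPM against 1721 to 1741, Hspd1 at 177 CPM against 209.9 to 214 and Pvt1 at 18.1 CPM against 21.9 to 22.5. It was also below them for Rrm1 at 618 CPM against 702 to 714 and Wapl at 123 CPM against 163 to 169.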

How the results depend on the processing

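The counts of genes were within 1.5 times the reported values under every alternative run but 1. Without a filter on low counts, 1207 genes were over 2-fold higher and 2311 over 2-fold lower. With DESeq2 in place of edgeR 607 and 1102 genes passed 2-fold, and with a filter of 1 CPM in at least 4 libraries 590 and 1134. Leaving out each No_Cre or Prx1_Cre library in turn gave 5283 to 5523 genes higher, 5654 to 5962 lower, 727 to 806 over 2-fold higher and 1386 to 1505 over 2-fold lower. With only the 8 libraries compared, 14236 of the 14756 genes were tested, and 5447 were higher, 5383 lower, 747 over 2-fold higher and 1215 over 2-fold lower. Upper-quartile factors moved the median gene by -0.09502 on the log2 scale, gave 4671 genes higher and 6540 lower and moved 60 of 65 list medians by more than the spread of the Prx1_Cre libraries. Of 193 tested genes in the text, none changed direction while called under any alternative run. Myc lost its call in 4 of the 8 sets with 1 library left out (log2 change -0.10 to -0.09), Mki67 lost its call with upper-quartile factors (log2 change 0.09), and Phgdh gained one there (-0.12) and without Prx1_Cre replicate 4 (-0.09). The share of promoters with each motif in 150 bases stayed within the binomial interval of that in 250.

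The replicate numbers were tried as a block (replicate block), which gave 5532 genes higher, 5886 lower, 771 over 2-fold higher and 1439 over 2-fold lower. The correlation of deviations of same-numbered libraries was 0.0051, 0.0075, 0.055 and 0.106, not above 0.1 for every pair, and the labels do not say that a number marks shared mice, so the numbers were not taken to pair the libraries.

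Genes under 1 CPM rest on few counts. Whether the libraries of a group came from separate mice is not stated, so the tests speak of these libraries. In each Prx1_Cre library 1 gene took 99.3 to 99.4% of immunoglobulin kappa V counts, against 0.00847 to 0.0118% in No_Cre. Another kappa V gene took 29.3 to 31.1% in the No_Cre libraries and 0.0399 to 0.131% in Prx1_Cre. These shares were thus alike within each group. Whether the libraries of a group were repeats of 1 pool of cells was not tested. Marker genes of red cells, neutrophils, plasma cells and of both sexes moved with the groups in bulk RNA of a sorted gate, and their part in the other results was not tested.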

Other observations

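Mast cell and basophil genes were lower in 13 of 22 and higher in 7, with Tpsb2, a tryptase, at -1.15 ± 0.04 on the log2 scale and Alox5, the enzyme that starts leukotriene synthesis, at 0.73 ± 0.04. Of 19 Notch genes 4 rose and 8 fell: Maml3, a coactivator, was at -1.17 ± 0.08, Notch2 at -0.76 ± 0.05, and the ubiquitin ligase gene Dtx4 rose (1.06 ± 0.06). Redox genes rose in 20 of 35 and fell in 10, glutathione reductase (Gsr) by 0.83 ± 0.03 and Gstm5 by 1.11 ± 0.04, and Gstt1 was at -0.96 ± 0.10. Cholesterol genes were called at 39.4% higher and 33.3% lower of 33, beside 36.7% and 39.0% of all genes tested, with Mvd of the synthesis pathway at 0.79 ± 0.08 and Apoe, which carries sterols out of cells, at -1.11 ± 0.05.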
